A study of Mus musculus with 4 samples.

Results

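The replication-dependent histone genes encode the core and linker histones that package newly copied DNA. They were followed here in single cells sorted as CD11c+ MHC-II+ from B16-F10 melanomas of C57BL/6 mice. The set holds every gene of the deposited tables whose symbol starts with Hist1h, Hist2h, Hist3h or Hist4 and that had at least 20 UMIs (unique molecular identifiers, 1 per captured RNA molecule) over all barcodes. That rule gave 63 genes of 67 with such symbols, out of 32285 genes in the tables. By type they are 6 genes for the linker histone H1, 17 for H2A, 16 for H2B, 12 for H3 and 12 for H4. The 4 left out were Hist1h4m with 1 UMI, Hist1h2bq with 2, Hist1h2ba with 3 and Hist2h2aa2 with 7, while the members just inside the limit were Hist1h3h with 33, Hist1h2aa with 48, Hist1h2ao with 48 and Hist1h2ah with 64.

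All mice carried 500000 subcutaneous tumor cells and were given adenovirus into the tumor on day 12. Ad-Null is the control virus, Ad-MEM40 carries the treatment label ISF35 (an engineered CD40 ligand), Ad-mIFNB carries mouse interferon beta, and Ad-COMBO joins ISF35 and mIFNB. The age of the mice and the time from injection to harvest are not given in the sources used here. Each group is 1 library that pooled cells of 3 tumors, so no comparison between groups has a replicate or a test, and bracketed 95% intervals cover counting error only. Levels are CPM, UMIs of a gene per 1000000 UMIs of the summed cells. UMIs count molecules caught at their 3' end and are not divided by gene length. Values given as a series of 4 follow the order Ad-Null, Ad-MEM40, Ad-mIFNB, Ad-COMBO.

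The 4 libraries held 11308, 18185, 2076 and 954 barcodes, of which 7286, 13378, 1810 and 670 were kept as single cells, with medians of 14106, 8941.5, 13615.5 and 11435 UMIs. Pairs of libraries shared between 0 and 63 barcodes. The gene of the sort marker MHC-II, H2-Ab1, had a UMI in 91.3 to 99.9% of kept cells of a library, and Itgax, which encodes CD11c, in 38.0 to 57.6%. The labels call the cells DC (dendritic cells). By markers the kept cells also held macrophage-like, monocyte-like, neutrophil-like, melanoma-like and T or NK cell-like clusters. Melanoma-like cells, which the labelled cell type does not cover, were 43 of 1824 cycling cells in Ad-Null and 129 of 2997 in Ad-MEM40.

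Cells need histones in bulk during S phase, when DNA is copied, and the genes described here are switched on then and their RNA is destroyed when S phase ends. Most of their messages are unusual in having no poly(A) tail. They end just after a short stem-loop, which the stem-loop binding protein (gene Slbp) holds during processing, export and translation. Some of the genes also make longer, polyadenylated messages. Libraries of the kind used here prime on poly(A), so a stem-loop message is caught only through internal priming or a rare tail, and levels of different members cannot be read as amounts of histone RNA.

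The stem-loops are printed because they are the part of the message that sets its 3' end, and because the members are grouped by it below. A search of the members' annotated transcripts (GRCm38, GENCODE M21) for a run of 16 bases with paired arms of 6 and a loop of 4, GGNNCTNTNNAGNNCC, found it in 42 of the 63 genes, in 6 forms. Capitals mark the arms of the stem and lower case the loop.
Form in 25 genes, Hist1h2ap among them: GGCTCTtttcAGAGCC
First form in 6 genes: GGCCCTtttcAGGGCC
Second form in 6 genes: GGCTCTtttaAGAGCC
First form in 2 genes: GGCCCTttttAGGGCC
Second form in 2 genes: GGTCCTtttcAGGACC
Form in 1 gene: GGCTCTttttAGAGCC
In the other 21 genes no match was found, which says only that these letters are not in the annotated transcripts.

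The members lie on 4 chromosomes of GRCm38, 51 on chromosome 13, 9 on chromosome 3, 2 on chromosome 11 and 1 on chromosome 6. Many are near copies of each other. In 24 of the 63 genes over 50% of the windows of 90 bases recur in an annotated transcript of another gene, and in 6 none do. The median is 34.4%. These shares also count genes annotated over the same place, such as Gm20634 for Hist2h3c1 and Hist2h2aa1 and Trim17 for Hist3h2a. They are therefore not a measure of copies alone. Hist1h2ap shares 92.4% of its windows with Hist1h2ao, so UMIs of that pair may be split between them or lost as ambiguous. Hist1h1b shares 0% and is free of this limit.

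Cells were called cycling when their UMIs of Mki67 (a proliferation marker) and Top2a (topoisomerase II, which untangles copied DNA) summed to at least 2. This took in 1824, 2997, 270 and 132 cells, or 25.0% (24.04 to 26.05), 22.4% (21.7 to 23.1), 14.9% (13.3 to 16.6) and 19.7% (16.8 to 22.9) of kept cells. With each cell thinned to 2000 UMIs the shares were 10.4, 10.2, 4.51 and 7.20%, so the call depends on depth. Ad-mIFNB had the smallest share both ways. Of the barcodes removed as doublets, 54.6% of 1459 in Ad-Null and 46.0% of 2278 in Ad-MEM40 met the call. Ad-mIFNB and Ad-COMBO lost 0 and 1 barcodes as doublets, so the shares also depend on doublet removal. Cycling cells were deeper than the other cells, with medians of 22091, 14249, 25869 and 18169 UMIs against 12488.5, 8072, 12278 and 10263.5.

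Histone RNA was concentrated in the cycling cells of every library. Summed over the 63 members, it lay at 6551 CPM (6528 to 6575) in cycling and 455 CPM (450 to 460) in other cells of Ad-Null, a log2 ratio of 3.83 with 5 CPM added to both sides. In Ad-MEM40 the levels were 4221 (4203 to 4239) and 334 CPM (330 to 338), a log2 ratio of 3.64. In Ad-mIFNB they were 2785 (2748 to 2823) and 318 CPM (311 to 326), a log2 ratio of 3.11. In Ad-COMBO they were 2328 (2271 to 2386) and 374 CPM (360 to 389), a log2 ratio of 2.62. Cycling cells thus held 89.9, 87.1, 75.9 and 71.1% of all histone UMIs while holding 38.1, 34.8, 26.4 and 28.3% of all UMIs. Thinned to 2000 UMIs per cell, with cycling called anew, the 4 log2 ratios were 3.47, 3.58, 3.59 and 3.10, so their order among the libraries was not kept while the excess in cycling cells was.

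The level followed the amount of Mki67 and Top2a. In Ad-Null it was 451 CPM in cells with 0 such UMIs, 468 with 1, 685 with 2 to 3, 1395 with 4 to 9, 7655 with 10 to 29 and 12953 with 30 or more. The same top class gave 7983, 6289 and 5648 CPM in the other libraries, and the cells with 0 gave 326, 314 and 376 CPM. Histone RNA was also very uneven among cycling cells. It made up at least 1% of a cell's UMIs in 23.8, 17.5, 8.52 and 6.06% of cycling cells, against 0.165, 0.144, 0.130 and 0.372% of other cells, and the median cycling cell held 0.103, 0.0790, 0.0515 and 0.0518%. The 5% of kept cells with most histone RNA held 72.5, 71.6, 70.6 and 61.5% of it.

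**Figure D1:**
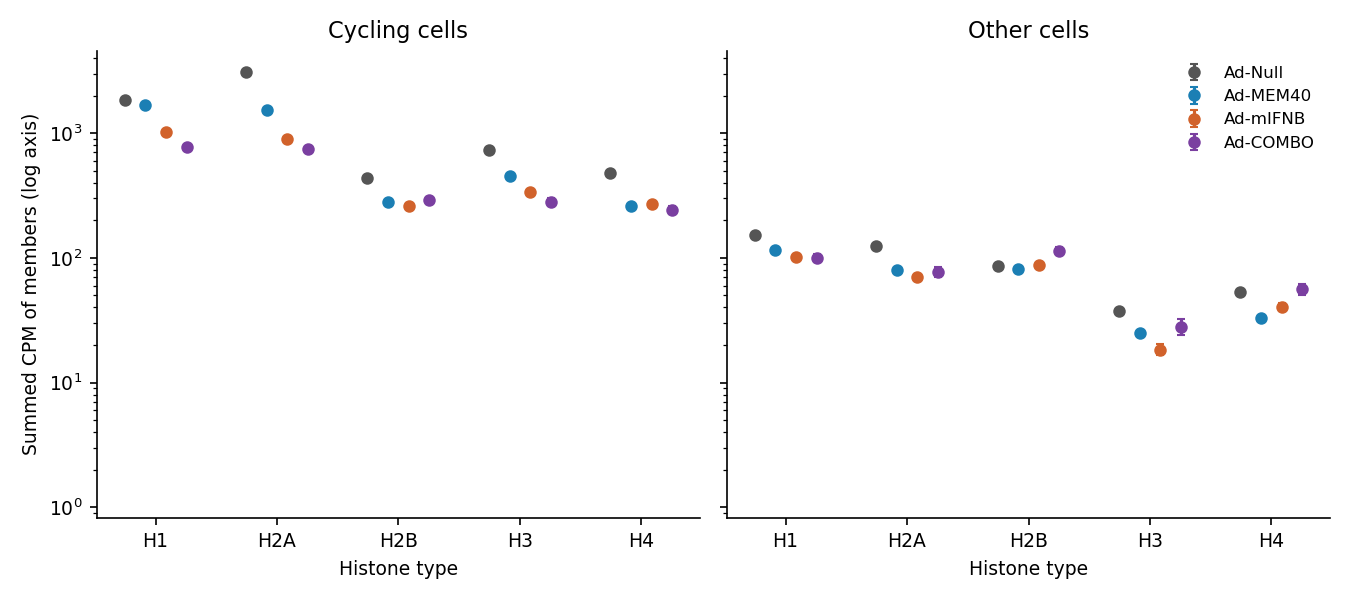
Summed CPM (log axis) of the members of each histone type in cycling cells (left) and other cells (right); each point is 1 library and the bars are exact Poisson intervals at 95%. In cycling cells Ad-Null is the highest point of every type; summed H2A runs from 3073 CPM to 747 CPM in Ad-COMBO.

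Among the types, H2A and H1 gave most of the signal in cycling cells. H2A, which forms dimers with H2B in the nucleosome core, lay at 3073, 1545, 889 and 747 CPM in cycling and 125, 79.8, 69.9 and 77.2 CPM in other cells. H1, which binds the linker DNA where it enters and leaves the nucleosome, lay at 1829, 1681, 1026 and 767 CPM in cycling and 153, 116, 102 and 99.1 CPM in other cells. The ratio of H2A to H1 in cycling cells was 1.68 in Ad-Null and 0.919, 0.867 and 0.974 in the 3 treated libraries. H3, which forms the central tetramer with H4, lay at 736, 454, 338 and 282 CPM in cycling and 37.7, 24.9, 18.3 and 28.1 CPM in other cells. H4 lay at 475, 261, 270 and 243 CPM in cycling and 53.3, 32.8, 40.4 and 56.0 CPM in other cells. Summed H2B, to which Hist1h2bc adds most in other cells, lay at 439, 281, 262 and 289 CPM against 85.5, 80.8, 87.2 and 114 CPM, which are folds of 5.14, 3.47, 3.00 and 2.54. Without Hist1h2bc, a step chosen after seeing the data, the folds were 11.8, 10.4, 6.76 and 5.46, and those of H4 were 8.92, 7.96, 6.68 and 4.35. The folds of summed H2A were 24.5, 19.4, 12.7 and 9.68.

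Of the members with at least 20 UMIs over both kinds of cell, 45 of 60 were at least 1.5-fold higher in cycling cells of Ad-Null, 39 of 60 in Ad-MEM40, 38 of 48 in Ad-mIFNB and 35 of 40 in Ad-COMBO. Over all genes tested the same call took in 6.77, 7.08, 6.91 and 6.25%. By type the Ad-Null counts were 5 of 6 for H1, 12 of 15 for H2A, 12 of 16 for H2B, 8 of 11 for H3 and 8 of 12 for H4. The median log2 ratio of the members was 1.66, 1.26, 1.46 and 1.63, beside 0.05, 0.05, 0.04 and 0.00 for all genes tested. The 5 CPM added to both sides draw the ratios of scarce members toward 0. In Ad-mIFNB and Ad-COMBO 1 member was at least 1.5-fold lower in cycling cells, Hist3h2a.

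Hist1h1b, an H1 gene, had the highest log2 ratio of cycling to other cells (5 CPM added) in the 3 treated libraries and stood next to Hist1h2ap in Ad-Null. It lay at 848, 843, 464 and 310 CPM in cycling and 20.7, 18.9, 4.71 and 3.87 CPM in other cells, log2 ratios of 5.05, 5.15, 5.59 and 5.15. Every cycling value was above every value of other cells. Hist1h1e, the second H1 gene by UMIs, lay at 518, 448, 286 and 212 CPM in cycling and 50.3, 35.4, 23.4 and 26.3 CPM in other cells. Hist1h1c was less tied to cycling, with 248, 202, 163 and 160 CPM against 73.6, 54.0, 69.9 and 63.6 CPM. Hist1h1d and Hist1h1a lay at 31.9 to 116 CPM in cycling cells, and Hist1h1t, the H1 gene of the testis, at 2.18 CPM or less in each library.

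Hist1h2ap was the most abundant member, with 116871 UMIs in kept cells. It lay at 1687, 694, 295 and 263 CPM in cycling and 44.8, 18.9, 5.05 and 10.7 CPM in other cells, log2 ratios of 5.09, 4.87, 4.90 and 4.09. Ad-Null stood well above the 3 treated libraries in both kinds of cell. Hist1h2ae, the second H2A gene, lay at 858, 514, 319 and 225 CPM in cycling and 23.1, 15.6, 6.28 and 6.44 CPM in other cells. Hist2h2ac and Hist1h2ab followed with 193, 136, 96.1 and 96.2 CPM and 134, 78.9, 62.0 and 56.6 CPM in cycling cells.

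Hist3h2a on chromosome 11 went the other way. It lay at 15.6, 15.04, 19.9 and 14.9 CPM in cycling and 18.7, 21.0, 36.8 and 33.4 CPM in other cells, log2 ratios of -0.20, -0.38, -0.75 and -0.95. By CPM, cycling cells were the lower side in all 4 libraries. After thinning, Hist3h2a had a UMI in 3.50, 2.83, 2.97 and 3.05% of cycling and 3.40, 3.83, 7.14 and 7.29% of other cells. The shares were thus nearly level in Ad-Null. The part of class makeup was not tested. Hist3h2ba, the H2B gene beside Hist3h2a, was nearly level at 9.89, 7.43, 9.02 and 6.89 CPM against 7.01, 5.04, 11.04 and 8.16 CPM. Hist2h3c1 and Hist2h3c2, both H3 genes of chromosome 3, also had ratios close to 0, at levels of 0.485 to 2.12 CPM, below the 5 CPM added to both sides.

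Hist1h2bc was the leading H2B gene and was present in both kinds of cell, at 105, 90.3, 84.0 and 138 CPM in cycling and 57.2, 62.4, 60.9 and 86.0 CPM in other cells. Ad-COMBO held the highest value in both. Hist1h2bj, the second, was tied to cycling, at 71.3, 32.2, 39.3 and 27.2 CPM against 3.42, 1.62, 1.57 and 2.15 CPM. Hist1h3c led the H3 genes with 441, 283, 204 and 154 CPM in cycling and 13.8, 9.81, 2.57 and 6.01 CPM in other cells. Hist1h3e, the second, lay at 80.5, 49.8, 51.1 and 57.0 CPM against 7.90, 4.60, 5.14 and 8.16 CPM. Every cycling value of both H3 genes was above every value of their other cells. Hist1h4d led the H4 genes with 284, 163, 161 and 139 CPM in cycling and 25.5, 13.6, 17.5 and 25.6 CPM in other cells. Hist1h4h followed with 100.5, 44.5, 48.6 and 40.3 CPM against 7.16, 3.80, 2.95 and 6.01 CPM.

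Droplet libraries carry free RNA, so a UMI in a non-cycling cell need not come from that cell; empty droplets were not analysed here. After thinning, Hist1h2ap had a UMI in 45.0, 35.5, 23.0 and 19.1% of cycling cells and in 10.5, 4.005, 1.201 and 2.29% of other cells. In the non-cycling mature DC-like cells alone, without the signs of cycling used here, the shares were 10.8, 4.61, 0.971 and 0.763%, with median depths of 11188, 6598, 10721 and 7827 UMIs before thinning. In Ad-Null and Ad-MEM40 the share over all other cells was no higher than that, and no expression is read from it. In the 5% of other cells with the largest share of S phase RNA the members lay at 561, 435, 427 and 469 CPM. In the rest they lay at 450, 329, 315 and 371 CPM. The first cells were also shallower, with medians of 9388, 7791, 3096 and 3092 UMIs against 12556.5, 8073, 12566 and 10538. The part of depth in this difference was not tested. The part of free RNA was not tested.

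Among cycling cells, histone RNA differed with the position in the cycle. Position was taken as the share of S phase gene UMIs in the sum of UMIs of 43 S phase and 50 G2 and M phase genes, lists that hold no member. In Ad-Null the members lay at 8597 CPM in cells with a share under 20%, 8910 at 20 to 40%, 4405 at 40 to 60% and 807 at 60% or more. The other libraries ran 5126, 5911, 3370 and 742 CPM in Ad-MEM40, 3885, 3864, 2104 and 501 CPM in Ad-mIFNB and 2154, 4107, 1582 and 596 CPM in Ad-COMBO. In all 4, cells with the highest share of S phase genes held the least histone RNA of the cycling cells. The S phase list includes genes that start DNA copying, such as the Mcm helicase genes. The median of Mki67 and Top2a UMIs per cell also differed, at 24, 6, 5 and 4 from the lowest share to the highest in Ad-Null, 16, 7, 4 and 3 in Ad-MEM40, 14, 5.5, 4 and 5 in Ad-mIFNB and 9, 3, 4 and 4 in Ad-COMBO. Its part in the pattern was not tested. The median share was 34.8, 33.8, 36.1 and 29.4%.

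**Figure D2:**
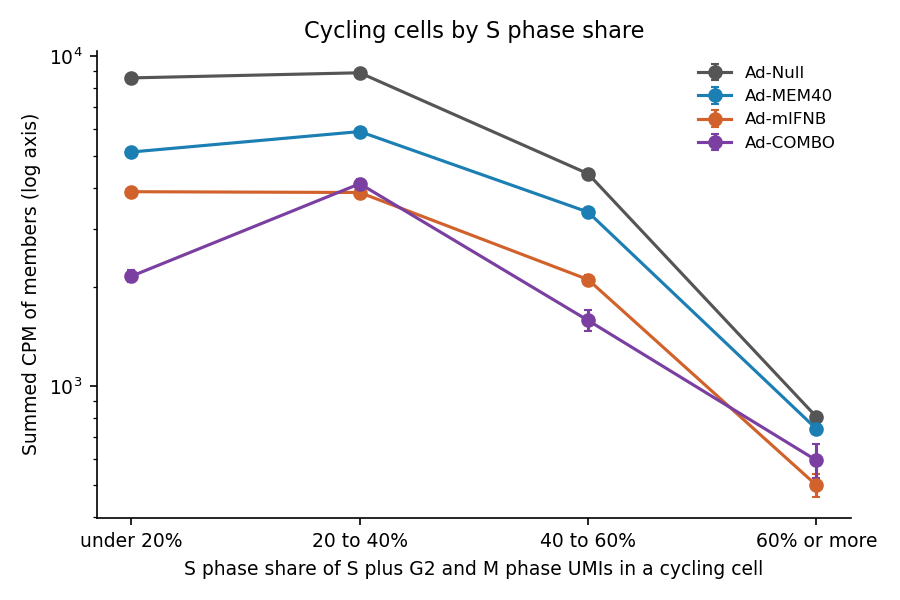
Summed CPM of the 63 members (log axis) in cycling cells grouped by the S phase share of their cell cycle UMIs; lines are libraries and bars exact Poisson intervals at 95%. Levels are lowest in each library at a share of 60% or more, from 807 CPM in Ad-Null to 501 CPM in Ad-mIFNB.

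By CPM, less histone RNA was captured in the 3 treated libraries than in Ad-Null. Whether its capture differed between libraries was not tested. Over all kept cells the members summed to 2780, 1688, 970 and 927 CPM, with intervals of 2770 to 2790, 1681 to 1695, 958 to 981 and 908 to 946 CPM. The 4 intervals do not overlap, but they cover counting error only. They leave out differences between cells, tumors and libraries, so they cannot show that the treatments differ. The order of Ad-mIFNB and Ad-COMBO was reversed after thinning and with a mean over cells, as the last section shows. The log2 ratios to Ad-Null were -0.72, -1.51 and -1.58. Within cycling cells they were -0.63, -1.23 and -1.49, and within other cells -0.44, -0.51 and -0.28. With cycling and other cells weighted at the same shares in each library, 35.1% of UMIs from cycling cells, the ratios were -0.61, -1.13 and -1.29. All 3 ratios were below 0 with this weighting too, which sets the share of UMIs from cycling cells and not the makeup within them. Cells with 30 or more Mki67 and Top2a UMIs were 456 of 1824, 453 of 2997, 56 of 270 and 21 of 132 cycling cells. Their part in the ratios was not tested. Mki67 lay at 428, 451, 321 and 411 CPM in cycling cells and Top2a at 404, 434, 271 and 273 CPM.

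Of the members measured in cycling cells, 19 of 61 were at least 1.5-fold lower in Ad-MEM40 than in Ad-Null, 26 of 60 in Ad-mIFNB and 27 of 60 in Ad-COMBO, where 0.321, 1.57 and 6.74% of all genes tested were that much lower. At least 1.5-fold higher were 0, 0 and 1, the last being Hist4h4. The median log2 ratio of the members was -0.36, -0.46 and -0.52, beside 0.04, -0.03 and -0.06 for all genes. Over all kept cells the counts of lower members were 18 of 62, 25 of 60 and 26 of 60 (0.387, 1.41 and 3.39% of all genes), and in other cells 2 of 55, 9 of 53 and 6 of 52 (0.478, 1.03 and 2.56%). The 3 comparisons share the Ad-Null library.

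**Figure D3:**
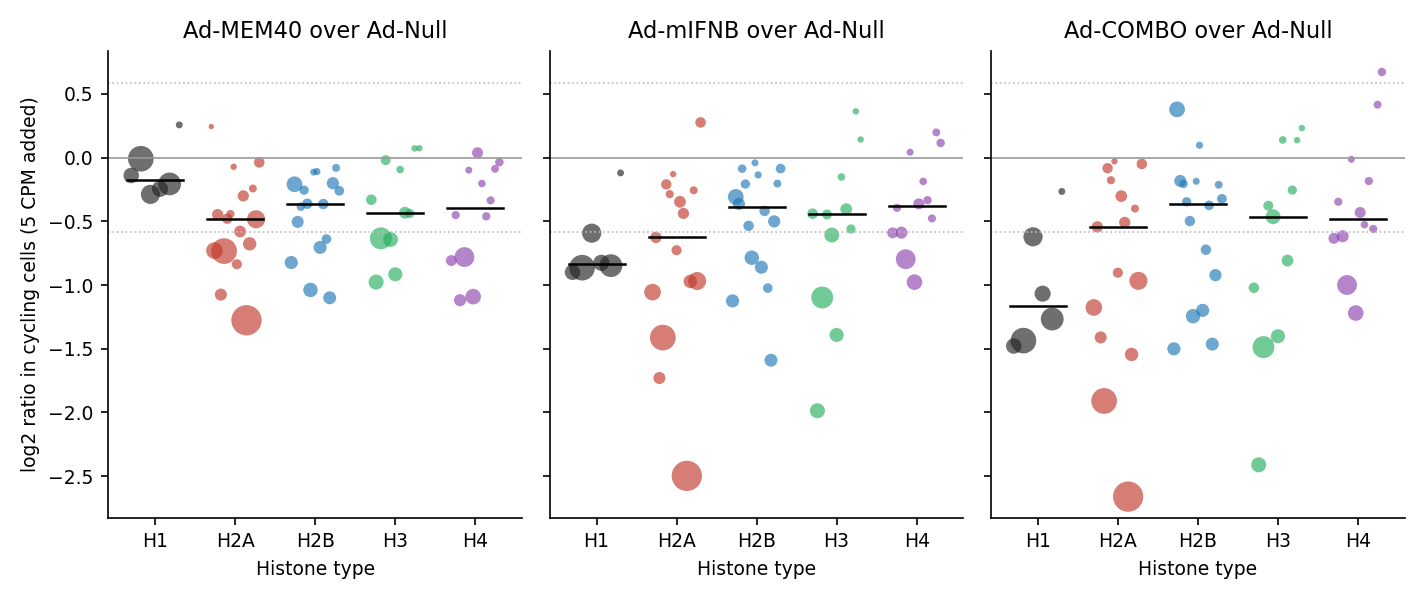
Log2 ratio of each member to Ad-Null in cycling cells (5 CPM added to both sides), by histone type, 1 panel per treated library; point area grows with the CPM in Ad-Null, black bars are medians and dotted lines mark 1.5-fold. In Ad-MEM40 all 6 H1 genes lie between the dotted lines while 6 of 16 H2A genes lie below, and in the other panels 5 of 6 H1 genes lie below.

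The types did not move alike. In cycling cells of Ad-MEM40 the summed H1 level was close to that of Ad-Null, at a log2 ratio of -0.12, and 0 of 6 H1 genes were 1.5-fold lower. H2A lay at -0.99 with 6 of 16 genes lower, H2B at -0.64 with 5 of 16, H3 at -0.69 with 4 of 11 and H4 at -0.85 with 4 of 12. In Ad-mIFNB and Ad-COMBO H1 was lower too, at -0.83 and -1.25, with 5 of 6 genes lower in each. Summed H2A lay at -1.78 with 8 of 15 genes and -2.03 with 7 of 15. Its largest part is Hist1h2ae in Ad-mIFNB and Hist1h2ap in Ad-COMBO. H2B lay at -0.74 and -0.59, H3 at -1.11 and -1.37 and H4 at -0.80 and -0.95. The order of the types depends on the measure. Without Hist1h2ap, a step chosen after seeing the data, H2A lay at -0.70, -1.21 and -1.51, above H4 in Ad-MEM40. By the median member, H2A was lowest in Ad-MEM40 at -0.48, and H1 in Ad-mIFNB and Ad-COMBO at -0.84 and -1.17, beside -0.63 and -0.54 for H2A.

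Hist1h2ap carried the lowest ratio of the members in each treated library, -1.28, -2.50 and -2.66 in cycling cells and -1.38, -2.97 and -2.96 over all kept cells. Without it the summed ratios over all cells were -0.55, -1.24 and -1.31. Next lowest over all cells were Hist1h4h at -1.05 and Hist1h2bj at -0.99 in Ad-MEM40, and Hist1h3b and Hist1h2ae in the others, at -1.97 and -1.88 in Ad-mIFNB and -2.15 and -2.24 in Ad-COMBO. In cycling cells Hist1h3b lay at 85.3, 40.9, 17.8 and 12.0 CPM, so its 4 libraries were widely spread. Hist1h1b, by contrast, lay at -0.01 in Ad-MEM40, -0.86 in Ad-mIFNB and -1.44 in Ad-COMBO. At the other end, Hist3h2a had the highest ratio over all cells in each treated library among members with at least 50 UMIs over both libraries, 0.09, 0.73 and 0.56. Hist4h4, the H4 gene of chromosome 6, followed at 0.28 in Ad-mIFNB and 0.52 in Ad-COMBO, from levels of 4.52, 4.28, 5.31 and 10.2 CPM in cycling cells and 3.06, 2.94, 5.52 and 6.30 CPM in other cells. Hist3h2ba in Ad-mIFNB at 0.24 and Hist2h4 in Ad-COMBO at 0.43 came next. Hist1h1t at 0.09 and Hist2h3c2 at 0.04 in Ad-MEM40 followed, at levels of 2.18 CPM or less.

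Genes that serve histone supply were compared in the same cycling cells, where 0.321, 1.57 and 6.74% of all genes were 1.5-fold lower. Of 16 genes for synthesis and processing of histone RNA, 0 were that much lower in Ad-MEM40 and Ad-mIFNB and 3 in Ad-COMBO (Cdk2, Ccne1 and Ccne2, the kinase and cyclins that start S phase). Slbp lay at 101, 98.0, 93.9 and 66.0 CPM and Npat, which switches on histone genes, at 18.7, 21.9, 21.2 and 17.4 CPM. Of 16 histone chaperones, which carry histones to DNA, 0, 0 and 3 were lower. One was higher in both interferon libraries, Daxx, at 45.3, 49.6, 136 and 164 CPM. Of the 11 replacement histone genes, variants most of which are made throughout the cycle, 0 of 11, 0 of 11 and 2 of 10 were lower. One of them, H3f3b, lay at 2117, 2531, 2728 and 2591 CPM. In Ad-Null 5 of the 11 were at least 1.5-fold higher in cycling than in other cells, led by H2afx at a log2 ratio of 2.37. Of 43 S phase genes, 0, 0 and 19 were lower, with medians of 0.11, 0.00 and -0.58, and of 50 G2 and M phase genes 0, 2 and 8. The lists overlap: Slbp, Ccne2 and Casp8ap2 are on both the processing and the S phase list. Nasp and Chaf1b are on both the chaperone and the S phase list, and Cenpa on both the replacement and the G2 and M phase list.

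The annotated 3' end was set beside these ratios. In 20 members the annotation ends 3 to 74 bases after the stem-loop, in 22 the annotation runs on for 151 to 4884 bases past it, and the 21 others have no match. Among members with at least 100 UMIs in Ad-Null, the fold of cycling over other cells had a median of 20.8 (4.49 to 48.5) over 17 genes that end near the stem-loop. It was 16.9 (1.84 to 52.3) over 17 genes with no match and 7.63 (0.834 to 37.1) over 19 genes that run past it. Below 3-fold were 0, 2 and 5 genes. The 5 were Hist3h2a, Hist3h2ba, Hist4h4, Hist2h4 and Hist1h4i, and the 2 were Hist1h2bc and Hist2h2be. Hist1h2ae, which runs past the stem-loop at 37.1-fold, lies within the range of the first group, so the groups overlap. Against Ad-Null in cycling cells, the summed level of the genes that end near the stem-loop lay at log2 ratios of -1.04, -1.77 and -2.01, that of the genes with no match at -0.14, -0.80 and -1.08, and that of the genes that run past it at -0.52, -0.97 and -1.22. Single genes weigh heavily in these sums. Over all kept cells Hist1h2ap gave 116871 of the 222246 UMIs of the genes that end near the stem-loop. Hist1h1b gave 86394 of the 139001 UMIs of the genes with no match. The groups were not summed without these genes.

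**Figure D4:**
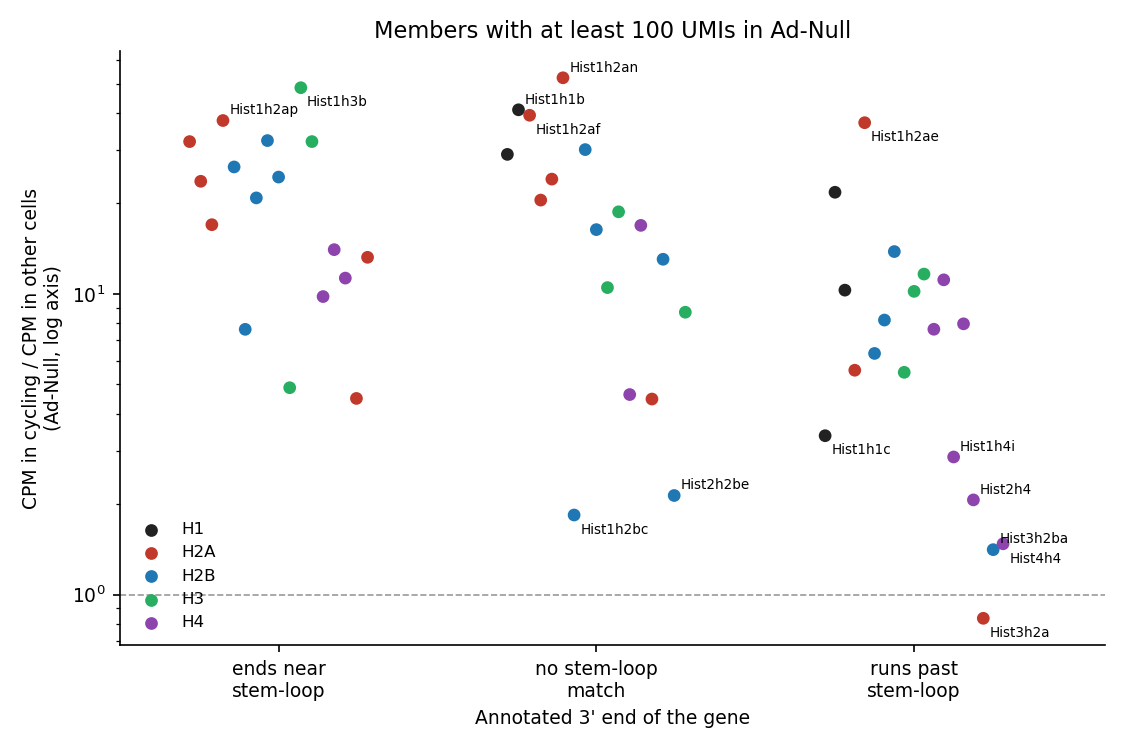
Fold of CPM in cycling over other cells of Ad-Null (log axis) for members with at least 100 UMIs there, grouped by the annotated 3' end and colored by histone type; the dashed line is equal level. The 17 genes that end near the stem-loop all lie above 3-fold, and 5 of 19 genes that run past it lie under 3-fold, Hist3h2a lowest at 0.834.

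The promoters were read for motifs known from histone genes. The 250 bases before the RefSeq start (GRCm38.p6) were available for 58 of the 63 members. A CCAAT box (CCAAT, either strand), bound by the factor NF-Y, was in 48 of 58, or 82.8%, against 33.8% of all 32851 promoters of that length. It was in 6 of 6 H1, 17 of 17 H2A, 14 of 14 H2B, 8 of 10 H3 and 3 of 11 H4 genes. These are not all separate stretches: 8 pairs of neighbouring H2A and H2B genes share 163 to 248 of the 250 bases, Hist1h2ap and Hist1h2br among them, and a box in shared bases counts for both. With overlapping promoters merged, 40 of 50 stretches, or 80.0%, hold a CCAAT box. The octamer ATTTGCAT, bound by Oct factors, was in 12 of 58 (20.7% against 1.60%), of which 7 are H2A and 5 H2B genes. A TATA box read as TATAAA was in 27 of 58 (46.6% against 12.4%). Matches were taken on both strands and could share bases. The promoters of Hist1h1b and Hist1h2ap, the leading H1 and H2A genes, and of Hist3h2a, with the lowest ratio of cycling to other cells, follow, 5' to 3' in the direction of the gene, with matches to the 3 motifs in capitals.
Hist1h1b, minus strand of chr13:21780626-21780875: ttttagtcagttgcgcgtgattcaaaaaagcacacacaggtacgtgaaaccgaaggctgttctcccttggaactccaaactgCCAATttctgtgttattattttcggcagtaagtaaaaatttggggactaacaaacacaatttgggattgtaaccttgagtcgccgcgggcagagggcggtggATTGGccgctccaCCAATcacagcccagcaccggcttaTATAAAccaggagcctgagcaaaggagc
Hist1h2ap, minus strand of chr13:21833476-21833725: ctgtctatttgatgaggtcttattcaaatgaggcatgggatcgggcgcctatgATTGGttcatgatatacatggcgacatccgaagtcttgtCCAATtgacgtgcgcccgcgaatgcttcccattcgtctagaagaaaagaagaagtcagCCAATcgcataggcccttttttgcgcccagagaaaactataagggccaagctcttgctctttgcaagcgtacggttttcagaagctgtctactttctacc
Hist3h2a, plus strand of chr11:58954435-58954684: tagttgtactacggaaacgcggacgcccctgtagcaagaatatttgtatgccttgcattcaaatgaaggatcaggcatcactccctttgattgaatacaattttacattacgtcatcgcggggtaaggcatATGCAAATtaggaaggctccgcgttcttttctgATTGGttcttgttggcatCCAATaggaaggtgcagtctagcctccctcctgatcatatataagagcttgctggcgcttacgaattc
Hist1h1b and Hist1h2ap each hold 3 matches to CCAAT, and Hist1h1b also 1 to TATAAA. Hist3h2a, which was not higher in cycling cells, holds 2 matches to CCAAT and 1 to the octamer.

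Cell classes differed in histone RNA among their cycling cells. Clusters were built without the members, Mki67, Top2a and the genes of the lists above, and were named from markers. Cell cycle genes outside those lists were not kept out. cDC1-like cells, of the dendritic cell type known for cross-presentation, lay high in every library, at 9995, 7053, 4440 and 3599 CPM over 532, 718, 71 and 41 cycling cells. Of the named classes with at least 20 cycling cells in a library, only the 22 T or NK cell-like cells of Ad-MEM40 lay higher than cDC1-like cells there, at 11492 CPM. Macrophage-like cells lay at 5378, 3759, 1506 and 1912 CPM over 446, 899, 47 and 26 cells. In both classes the treated libraries were below Ad-Null, by log2 ratios of -0.50, -1.17 and -1.47 and of -0.52, -1.83 and -1.49. Different clusters held the cDC1-like cells, since cluster 0 had 433 of 532 and 631 of 718 of the cycling ones in Ad-Null and Ad-MEM40 but 31 of 71 and 16 of 41 in the others, where cluster 18 had 35 and 18 (6 in Ad-Null). Within cluster 0 alone, a split chosen after seeing the data, the ratio was -0.53 in Ad-MEM40 and -0.89 in Ad-mIFNB, and 16 cells in Ad-COMBO were too few. Within the main macrophage-like cluster (cluster 3) it was -0.42 and -1.68, while cluster 9 lay at 0.88 in Ad-MEM40. Monocyte-like cells lay at 5261 and 3968 CPM in Ad-Null and Ad-MEM40. cDC2-like cells, which present to CD4 T cells, lay at 1250 and 1769 CPM, so here Ad-MEM40 was the higher by CPM. Mki67 and Top2a together also differed in them, at 325 and 605 CPM. Per UMI of Mki67 and Top2a, cDC2-like cells held 3.85 and 2.92 histone UMIs, so by that measure Ad-Null was the higher. The same measure gave 3.27 and 2.46 in mature DC-like cells and, the other way, 1.68 and 2.35 in melanoma-like cells. Mature DC-like cells, the migratory Ccr7 state, lay at 955, 1141, 1898 and 482 CPM, highest in Ad-mIFNB, but 1 of their 2 clusters also carried 8 of 12 macrophage markers. Cluster 16 stayed unnamed and lay at 17608 CPM over 132 cycling cells of Ad-Null and 10441 CPM over 193 of Ad-MEM40. Its leading genes were histone genes, which took no part in the clustering, and Pclaf, which is on no list and was not kept out. Within cycling cDC1-like cells H1 was no lower in Ad-MEM40 than in Ad-Null while H2A was, with H1 at 2843, 2980, 1703 and 1380 CPM and H2A at 4729, 2546, 1432 and 1211 CPM.

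Class makeup moved with treatment and its part in the library differences was not tested. cDC1-like cells were 29.2, 24.0, 26.3 and 31.1% of cycling cells, and macrophage-like cells were 446 of 1824, 899 of 2997, 47 of 270 and 26 of 132. An unnamed cluster led by interferon-induced genes (cluster 10) was 24.1% of cycling cells in Ad-mIFNB and 18.9% in Ad-COMBO and lay at 2196 and 1526 CPM.

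Melanoma-like cells used a different set of members. The 63 genes fall into blocks along the genome, with each start within 150 kb of the next. The first block of chromosome 13 (GRCm38, 21715763 to 21837530) holds 16 members, Hist1h1b and Hist1h2ap among them, and the largest (23531050 to 23764406) holds 29, with Hist1h1e, Hist1h2ae, Hist1h3c and Hist1h4d. In cycling melanoma-like cells the first block gave 0.964% (0.664 to 1.35) of histone UMIs in Ad-Null, 33 of 3424, and 1.48% (1.26 to 1.72) in Ad-MEM40, 165 of 11174. In the other classes and clusters with at least 20 cycling cells in these 2 libraries it gave 28.9 to 47.1%. The larger block gave 86.9 and 88.2% in melanoma-like cells, against 49.9 and 49.6% in cDC1-like cells.

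Hist1h1b lay at 2.15 and 11.9 CPM in cycling melanoma-like cells of Ad-Null and Ad-MEM40 (9 and 84 UMIs), against 1425 and 1650 CPM in cDC1-like cells. Hist1h2ap lay at 4.78 and 10.0 CPM (20 and 71 UMIs), against 2658 and 1283 CPM. Of the 10 members of the block at 10 CPM or more in cDC1-like cells of Ad-Null, 8 were under 1 CPM in melanoma-like cells of each of both libraries, and 10 of the 16 had 0 UMIs in Ad-Null and 9 in Ad-MEM40. Summed, the block was 0.179 and 0.743% of its level in cDC1-like cells, while the larger block was 14.2 and 39.8% and the chromosome 3 block 12.2 and 40.2%. A few members outside the first block were as scarce. Hist1h1a lay at 0.478 and 1.27 CPM against 151 and 142 CPM, Hist1h3b at 0.239 and 1.27 CPM against 126 and 66.1 CPM, and Hist1h2ad at 0 and 0.141 CPM against 47.5 and 21.7 CPM. Some other members were as high in melanoma-like as in cDC1-like cells. Among them were Hist1h2bc at 128 and 129 CPM against 123 and 90.6 CPM, and Hist3h2a at 29.1 and 19.1 CPM against 18.0 and 16.2 CPM.

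Cycling melanoma-like cells were deeper than cDC1-like cells, with medians of 96908 and 57448 UMIs against 26687 and 15590.5. Mki67 and Top2a together lay at 488 and 672 CPM in them, against 292 and 463 CPM in mature DC-like and 1130 and 1173 CPM in cDC1-like cells. The 43 and 129 cells come from pools of 3 tumors each of 1 cell line. Part of the few UMIs of the first block may be free RNA, which was not tested.

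**Figure D5:**
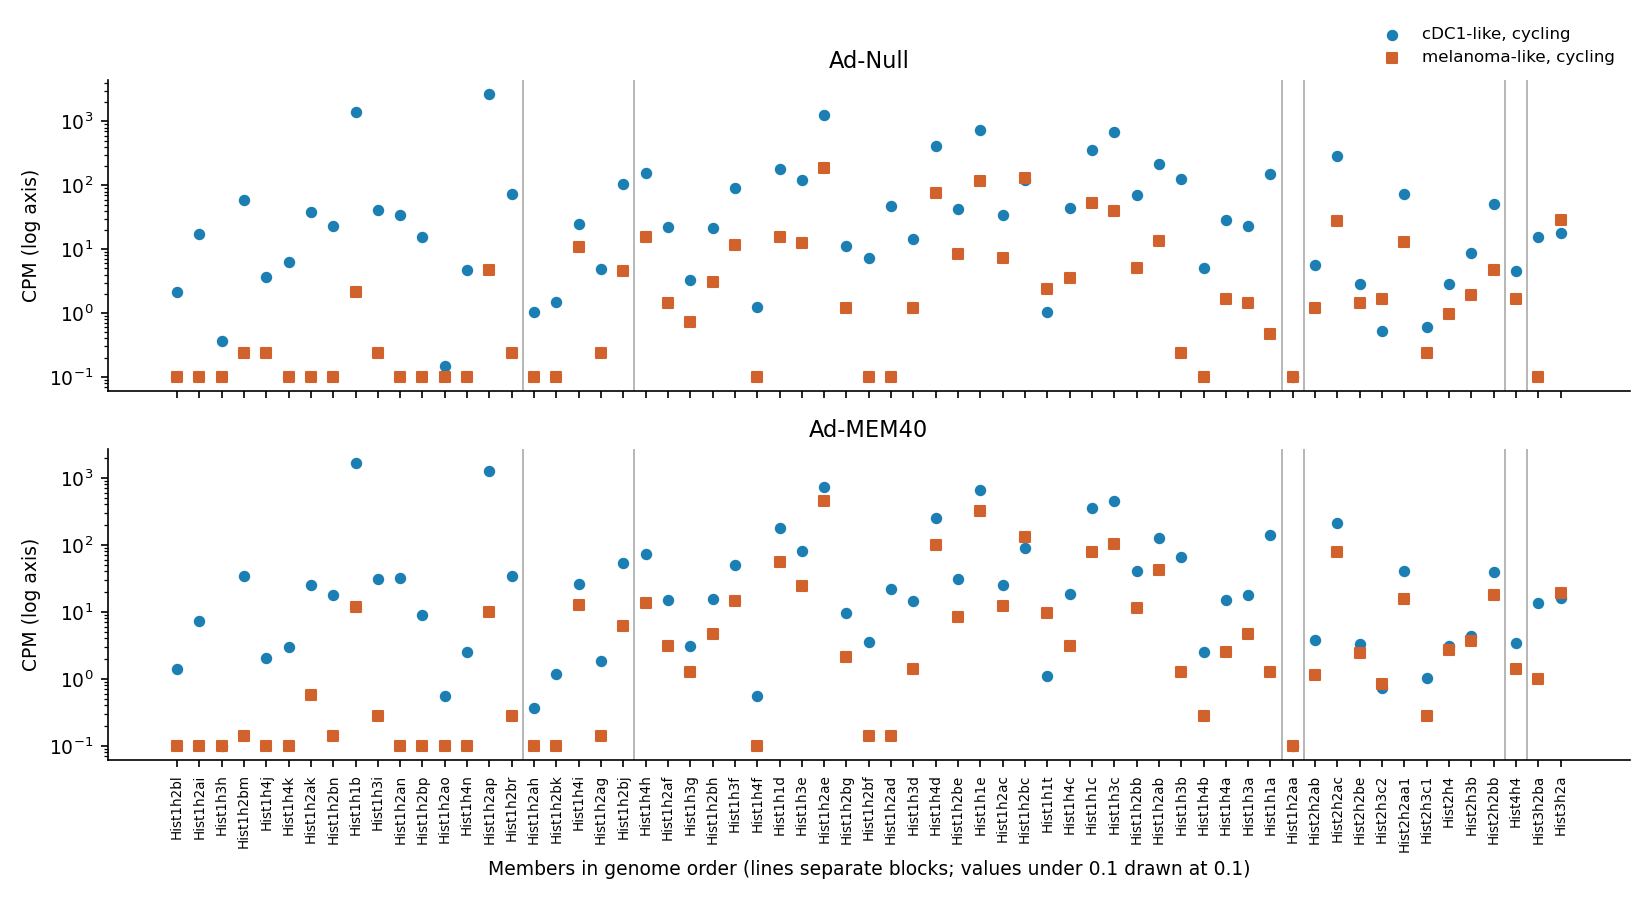
CPM (log axis) of each member in cycling cDC1-like (blue circles) and melanoma-like cells (orange squares) of Ad-Null (top) and Ad-MEM40 (bottom), in genome order, with lines between blocks and values under 0.1 drawn at 0.1. In the first block, at the left, melanoma-like values lie at the bottom for nearly all members, Hist1h1b at 2.15 CPM against 1425 CPM in Ad-Null. In the third block most melanoma-like values also lie below the cDC1-like values, but by less. Summed, that block is at 14.2% of the cDC1-like level in Ad-Null and 39.8% in Ad-MEM40.

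In non-cycling pDC-like cells, the interferon-producing dendritic cells, the chromosome 11 pair Hist3h2a and Hist3h2ba gave 10.7 and 14.2% of histone UMIs in Ad-Null and Ad-MEM40 and 38.0 and 33.3% in Ad-mIFNB and Ad-COMBO, on totals of 1104, 365, 192 and 72 histone UMIs. The level of the pair was 57.0, 49.5, 128 and 110 CPM, the last 2 from 53 and 22 cells. In the other classes and clusters with at least 20 non-cycling cells, the share ran from 1.80 to 9.78% in Ad-Null and 2.18 to 15.4% in Ad-MEM40, where cluster 10 was above pDC-like cells. The lowest and highest were 1.11 and 19.9% for Ad-mIFNB, then 6.48 and 13.8% for Ad-COMBO. cDC1-like cells gave 6.05, 8.52, 17.8 and 11.1%, so the share was higher in both interferon libraries than in Ad-Null there too. T or NK cell-like cells gave 1.80% (0.587 to 4.15) in Ad-Null and 1.11% (0.229 to 3.20) in Ad-mIFNB. These rest on 5 and 3 UMIs of the pair, and the intervals overlap. Cluster 4 was lower in Ad-mIFNB than in Ad-Null.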

How the data were processed

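The deposited files hold whole-number UMI counts per gene and cell barcode for 4 libraries, for which the authors named Cell Ranger 3.0, Seurat 4.0 and the build mm10, per the submitters' processing notes; the matrix headers name Cell Ranger 6.0.0, and which version made them was not settled. The members and gene lists were chosen with earlier results of these data known. Barcodes with at least 500 genes and at most 10% mitochondrial UMIs were kept after Scrublet removed doublets per library with exact neighbours (1459, 2278, 0 and 1; the second by its expected share of 14.5%, since the automatic threshold marked 0%). UMIs were summed over cells and scaled to CPM; log2 ratios have 5 CPM added to both sides, and 1.5-fold calls need at least 20 UMIs over both sides. With 1 library per group no test was run. Intervals are exact Poisson for levels and exact Clopper-Pearson for shares, at 95%, and cover counting error only. Cells were clustered (scanpy 1.11.5; 2000 variable genes without members, list genes, Mki67 and Top2a; 30 components; 15 neighbours; Leiden resolution 1) into 20 clusters, named from marker lists by thresholds set after clusters had been seen; 4 stayed unnamed. The labels give no cell annotation and none was used here.

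Genes were named by rule: the 2 members of each type with most UMIs, the highest and lowest ratios of cycling to other cells, and the 3 highest and 3 lowest ratios to Ad-Null; other members were chosen after their values were seen. Sequences come from GENCODE M21 transcripts and RefSeq promoters (GRCm38.p6). The summing and calling steps were tested on simulated data. The calculations used Python 3.11.15, scipy 1.17.1, numpy 2.4.6 and pandas 2.3.3. Alternatives changed filters, doublet removal, depth, the added CPM, the cycling limit and the members or clusters summed.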

Additional observations from a re-analysis of the deposited data

Results flagged for a closer look

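The ratio of summed histone RNA to Ad-Null in cycling cells differed in direction between cell classes, and these differences were not tested, since each group is 1 library. For Ad-MEM40 the log2 ratio was -0.75 in the unnamed cluster led by histone genes (cluster 16), against 0.94 in melanoma-like cells and 1.49 in the unnamed cluster led by Cxcl9 and Gbp2 (cluster 8). For Ad-mIFNB it was -1.83 in macrophage-like and -1.17 in cDC1-like cells, against 0.99 in mature DC-like cells. Cluster 0 held 433 of 532 cycling cDC1-like cells in Ad-Null but 31 of 71 in Ad-mIFNB. The values rest on 43 cycling melanoma-like cells, 43 cells of cluster 8 and 92 mature DC-like cells in Ad-Null, and on 47 macrophage-like and 43 mature DC-like cells in Ad-mIFNB. Mki67 and Top2a together moved with the melanoma-like ratio, at 488 CPM in Ad-Null and 672 CPM in Ad-MEM40, and their part in it was not tested.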

How the results depend on the processing

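No paired analysis was possible because each group is 1 library. Under other settings 95 values of the summed ratios and member counts were taken. Direction was recorded for the ratios only, and 0 of them changed it. Of the 95 values, 39 moved by less than counting error (or under 1.5 times for counts) and 56 moved further. For the members named by rule 532 values were taken, of which 180 moved by less than counting error and 352 further. Of 20 values for the shares of cycling cells, 5 moved by less than counting error and 15 further. The cause of these moves was not tested. For the ratios to Ad-Null (Ad-MEM40, Ad-mIFNB, Ad-COMBO), keeping doublets gave -0.74, -1.56 and -1.63, all deposited barcodes -0.74, -1.54 and -1.62, thinning to 2000 UMIs -0.63, -1.39 and -1.32, a mean over cells -0.64, -1.45 and -1.18, equal weights of cycling and other cells -0.61, -1.13 and -1.29, and leaving out Hist1h2ap -0.55, -1.24 and -1.31. Leaving out melanoma-like cells gave -0.73 and -1.55 for the first pair, and the stricter filter of 1000 genes and 5% mitochondrial UMIs -1.67 for Ad-COMBO. For cycling over other cells (Ad-Null, Ad-MEM40, Ad-mIFNB, Ad-COMBO), thinning gave 3.47, 3.58, 3.59 and 3.10, a mean over cells 3.35, 3.30, 2.92 and 2.33, a cycling call of at least 4 UMIs 4.16, 3.97, 3.40 and 3.15, of at least 1 UMI 3.40, 3.19, 2.64 and 2.18, and leaving out Hist1h2ap 3.55, 3.46, 2.97 and 2.49. In Ad-Null and Ad-MEM40, keeping doublets gave 3.65 and 3.48, the stricter filter 3.94 and 3.73, all barcodes 3.53 and 3.42, and leaving out melanoma-like cells 3.96 and 3.80. Leaving out the cluster led by histone genes, chosen after seeing the data, gave -0.63, -1.30 and -1.32 against Ad-Null and 3.61, 3.50 and 3.06 for cycling over other cells of the first 3 libraries. The count of members at least 1.5-fold lower in cycling cells had lowest values of 16, 17 and 23 and highest of 27, 33 and 36 in the 3 treated libraries; it was 17 in Ad-mIFNB with doublets kept. Depth limits Ad-COMBO most, where 3 UMIs are 1.09 CPM in cycling cells.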
